A study of Mus musculus with 20 samples.

Results

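The genes described here are the muscle actins and 4 further contractile genes, 8 genes in all, taken by gene symbol from the 54446 gene IDs of the deposited expression tables. They were chosen by their TPM values, because Actc1, the actin of heart muscle, was lower in structures grown in Matrigel than in gastruloids, so that comparison chose the genes and its values are given below as a description, with no test. RNA was sequenced from structures grown from F1G4 mouse embryonic stem cells with 2 reporters, T::H2B-mCherry and Sox2::H2B-Venus, which mark cells expressing Brachyury and Sox2. The stem cells were grown on feeder cells, freed of them before aggregation, and every group received a pulse of 3 µM CHIR99021, which activates WNT signalling, after the first 48 h. The 96h group is the precursor of the trunk-like structures, with 10 structures pooled per library. The other groups were collected at 120 h with 6 structures per library: Gastruloid, grown without Matrigel, TLSMG, embedded in the basement membrane extract Matrigel, TLSMGC, in Matrigel with added CHIR, and TLSMGCL, in Matrigel with CHIR and LDN, an inhibitor of BMP receptors. Each group had 3 libraries, described in the labels as biological replicates, and structures were picked for an asymmetric pole. All structures came from 1 stem cell line, and the 5 single-cell samples of the series were not analysed here.

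Actins polymerise into filaments on which myosin pulls. Mammals have muscle actins, of heart (Actc1), skeletal muscle (Acta1), vascular smooth muscle (Acta2) and visceral smooth muscle (Actg2), beside the cytoplasmic actins that every cell uses. In embryos the muscle actins are not limited to finished muscle, and genes of this kind are classically controlled by serum response factor (SRF), which binds the CArG box and works with cofactors such as myocardin.

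TPM, the deposited level, divides a gene's reads by transcript length and sets every library to the same sum. Differences were tested with limma on log2(TPM + 1) over the 14290 genes with a mean of at least 1 TPM, with Benjamini-Hochberg adjustment and a threshold of 0.05. Of the 8 genes, 5 passed that filter: Actc1, Acta2, Des, Tagln and Tnnt2. Acta1, Actg2 and Myl7 did not, and are given as levels. Tagln passed only through Gastruloid: its mean over the other groups was 0.318 TPM, so it had to differ, and its calls support no statement. Relative depth, as coverage per FPKM, varied 2.19-fold between libraries, and libraries of one group correlated at r = 0.985 to 0.991 across genes. All 9 trunk tissue markers, among them Meox1 and Tcf15 of somites, Sox1 of neural tube and Cdx2 of the tailbud, passed the filter. Within that list Tbx6, of presomitic mesoderm, went from 323 ± 59.9 TPM in 96h to 2.88 ± 1.39 TPM in Gastruloid and 6.02 ± 2.00 TPM in TLSMG, and was 61.6 ± 5.96 TPM in TLSMGC and 57.1 ± 4.20 TPM in TLSMGCL. The neural gene Pax6 went the other way, from 0.666 ± 0.176 TPM in 96h to 23.5 ± 15.7 TPM in Gastruloid and 10.5 ± 4.88 TPM in TLSMG, with 0.139 TPM in TLSMGC and 0.242 TPM in TLSMGCL as means. In bulk RNA, fewer cells of a type and less RNA per cell cannot be told apart. The plot of the 8 genes by library shows that the muscle actins and Tnnt2 were high in different groups.

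**Figure D1:**
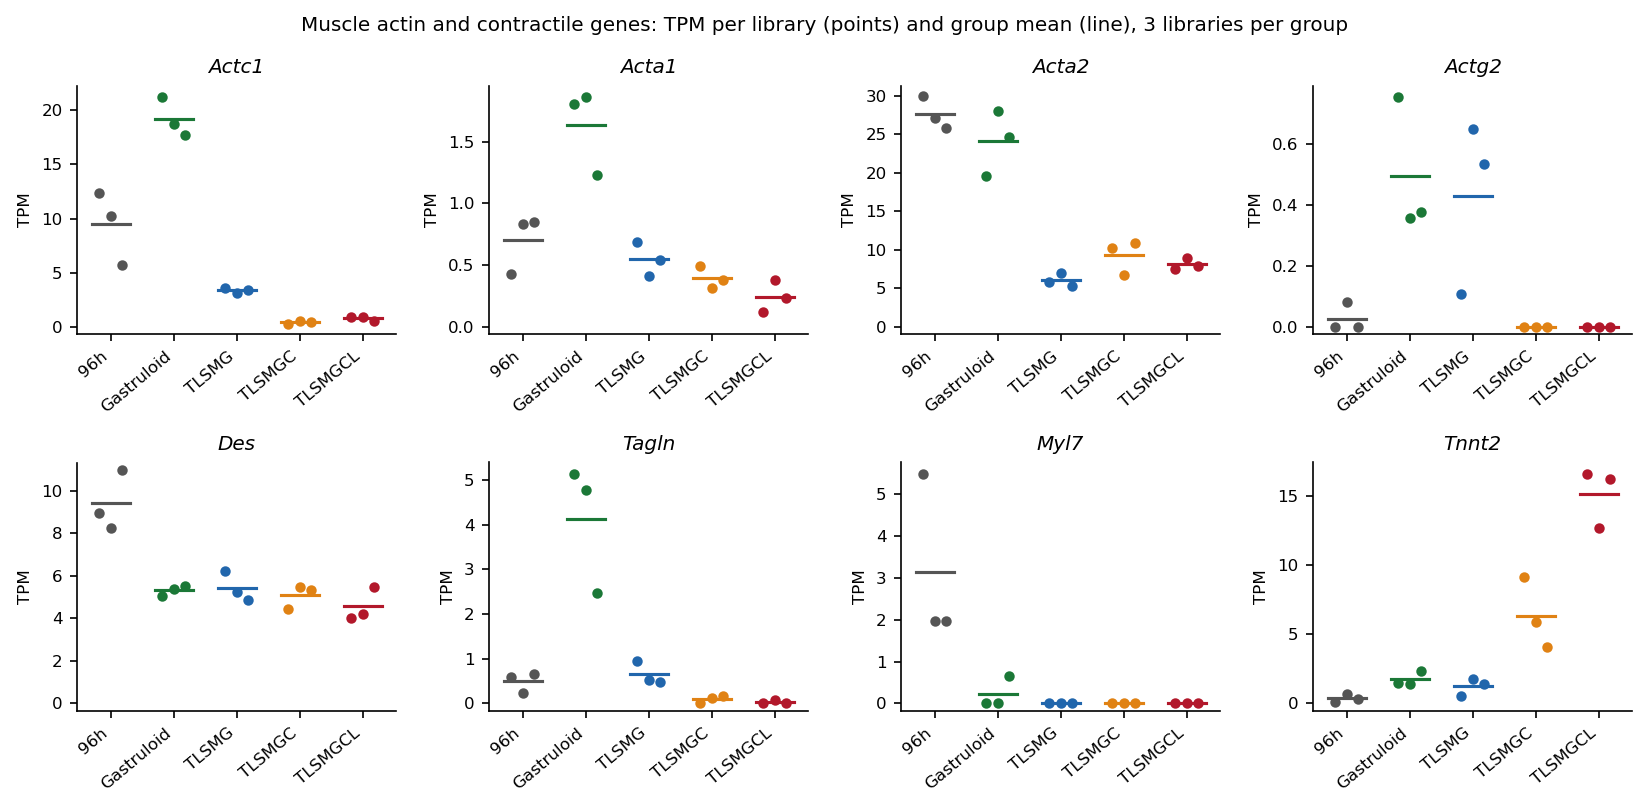
TPM of each of the 8 genes (vertical axis, linear, a scale of its own per panel) in the 5 groups (horizontal axis); points are libraries and lines are means of 3 libraries. Actc1, Acta1 and Tagln were highest in Gastruloid, Acta2 was high in 96h and Gastruloid, Myl7 was near 0 outside 96h, and Tnnt2 was highest in TLSMGCL.

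The promoters of 4 genes are shown because they differ in the CArG box and their levels differed across the groups in different ways. Each is the RefSeq sequence of build GRCm38.p6, from 250 bases before the annotated start to 50 bases after, written 5′ to 3′ on the gene's strand. Capitals mark matches to the CArG box, which is 2 C, then 6 bases of A or T, then 2 G, with at most 1 mismatch on either strand.
Actc1: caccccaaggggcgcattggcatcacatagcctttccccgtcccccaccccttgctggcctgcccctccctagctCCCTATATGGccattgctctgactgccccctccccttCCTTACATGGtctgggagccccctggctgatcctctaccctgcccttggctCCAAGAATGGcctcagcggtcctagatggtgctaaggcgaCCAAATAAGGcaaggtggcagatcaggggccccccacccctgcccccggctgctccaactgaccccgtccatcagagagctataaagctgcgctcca
Acta1: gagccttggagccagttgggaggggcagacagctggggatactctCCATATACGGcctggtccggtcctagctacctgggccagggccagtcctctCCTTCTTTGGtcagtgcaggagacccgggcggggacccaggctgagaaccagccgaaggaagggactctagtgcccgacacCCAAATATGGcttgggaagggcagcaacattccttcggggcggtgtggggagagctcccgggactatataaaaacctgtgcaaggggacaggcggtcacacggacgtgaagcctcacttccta
Acta2: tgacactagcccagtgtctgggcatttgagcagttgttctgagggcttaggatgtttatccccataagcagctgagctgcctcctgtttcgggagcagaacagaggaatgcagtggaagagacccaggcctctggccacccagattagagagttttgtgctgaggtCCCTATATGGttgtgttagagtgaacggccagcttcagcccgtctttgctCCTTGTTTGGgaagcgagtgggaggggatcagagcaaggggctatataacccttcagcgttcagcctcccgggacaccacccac
Tnnt2: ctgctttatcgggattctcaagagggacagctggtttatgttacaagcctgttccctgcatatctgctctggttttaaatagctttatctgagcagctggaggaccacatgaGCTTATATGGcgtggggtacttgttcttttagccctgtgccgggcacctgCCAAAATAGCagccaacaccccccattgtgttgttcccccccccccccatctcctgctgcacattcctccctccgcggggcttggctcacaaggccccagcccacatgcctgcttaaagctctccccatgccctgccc
The Actc1 sequence (chr2:114052826-114053125, minus strand) held 4 such matches, of which the one beginning 47 bases before the start was exact. The Acta1 sequence (chr8:123894726-123895025, minus strand) held 3, with an exact box at 73 bases before the start. Acta2 (chr19:34255324-34255623, minus strand) held 2 with a mismatch and none exact, and the first of the 2 Tnnt2 promoters (chr1:135836084-135836383, plus strand) also held 2 with a mismatch. Myl7 held 1 exact box, 61 bases before its start, whereas the Des promoter and the second Tnnt2 promoter held none. Over all 32851 promoters of that length, 1.63% held an exact box and 21.1% held one with at most 1 mismatch. The MEF2 site, present in 0.557% of all promoters, and the TCF/LEF core CTTTGA, present in 16.0%, were searched on both strands and matched none of these sequences. RefSeq promoters were matched for 6 of the 8 genes, the others being Actg2 and Tagln.

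Actc1 (ENSMUSG00000068614.7, chromosome 2, 114047282 to 114053548) measured 21.2, 18.8 and 17.7 TPM in the Gastruloid libraries and 3.64, 3.14 and 3.42 TPM in TLSMG. The groups did not overlap and the mean was 5.65-fold lower in TLSMG, a log2 difference of -2.20. These are the values that chose the genes. For all tested genes in this comparison, 52.3% had groups that did not overlap, 12.8% with TLSMG lower, and 39.3% passed the threshold. The 96h libraries lay between both, at 12.4, 10.3 and 5.77 TPM (9.46 ± 3.37, SD, n = 3), and the third was the lowest of them. With added CHIR the transcript was lowest: TLSMGC measured 0.270, 0.570 and 0.479 TPM, and TLSMGCL 0.918, 0.908 and 0.587 TPM. The order was Gastruloid, 96h, TLSMG, TLSMGCL and TLSMGC.

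From 96h, Actc1 rose in Gastruloid by 1.00 on the log2 scale (standard error 0.20, adjusted p = 0.00112) and fell in TLSMG by 1.19 (adjusted p = 0.000252). Both tests use libraries that chose the gene, together with 96h libraries that did not. That choice favours a high Gastruloid and a low TLSMG, so these adjusted p values are a description and give no independent support. Actc1 was 7.73-fold lower in TLSMGC than in TLSMG (log2 difference -1.62, adjusted p = 2.65e-05) and 4.23-fold lower in TLSMGCL (log2 difference -1.29, adjusted p = 0.000158), comparisons that share the TLSMG libraries. TLSMGC and TLSMGCL differed by 0.33, with an interval from -0.10 to 0.75 and an adjusted p of 0.537, although their libraries did not overlap. Against 96h the mean was 21.5-fold lower in TLSMGC and 11.8-fold lower in TLSMGCL.

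Acta2 (ENSMUSG00000035783.8, chromosome 19, 34241090 to 34255336), the smooth muscle actin that also marks early heart and somite muscle, was the most abundant of the muscle actins by group mean. It measured 30.0, 27.1 and 25.8 TPM in 96h and 19.6, 28.0 and 24.7 TPM in Gastruloid, ranges that overlapped. In TLSMG it measured 5.87, 7.02 and 5.27 TPM, below every library of those groups. TLSMGC measured 10.3, 6.71 and 10.9 TPM and TLSMGCL 7.56, 8.93 and 7.97 TPM, so that all 3 groups in Matrigel were low.

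Acta2 did not pass the test between Gastruloid and 96h (log2 difference -0.20, interval -0.55 to 0.15, adjusted p = 0.344). It fell from 96h by 2.03 in TLSMG (adjusted p = 3.65e-07), by 1.5 in TLSMGC (adjusted p = 8.37e-06) and by 1.65 in TLSMGCL (adjusted p = 3.56e-06). Unlike Actc1, it was not lower with CHIR: TLSMGC was 0.53 above TLSMG (adjusted p = 0.0196), while the corresponding 0.38 of TLSMGCL had an adjusted p of 0.0726. The first call was lost on leaving out replicate 1 or 3 of either group and in a fit of only the 2 groups (adjusted p 0.050 to 0.0892). The second value passed with FPKM or median-of-ratios scaling (adjusted p 0.0191 to 0.0367). In the comparison that chose the genes, Acta2 was 3.98-fold lower in TLSMG than in Gastruloid.

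Acta1 (ENSMUSG00000031972.5, chromosome 8, 123891769 to 123894751), the skeletal muscle actin, stayed under 2 TPM in every library. Its Gastruloid libraries measured 1.80, 1.86 and 1.23 TPM, and the 12 others lay between 0.123 and 0.852 TPM. Gastruloid therefore did not overlap any other group. The mean was 2.31-fold higher in Gastruloid than in 96h and 2.98-fold lower in TLSMG than in Gastruloid. Actg2 (ENSMUSG00000059430.14, chromosome 6, 83512905 to 83536265), the visceral smooth muscle actin, measured 0.754, 0.359 and 0.377 TPM in Gastruloid and 0.108, 0.649 and 0.534 TPM in TLSMG. It was listed at 0 in all libraries of TLSMGC and TLSMGCL and in all but 1 library of 96h.

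The 4 muscle actins summed to 32.5 to 42.8 TPM in 96h, 43.4 to 49.0 TPM in Gastruloid, 9.77 to 11.2 TPM in TLSMG, 7.59 to 11.7 TPM in TLSMGC and 8.60 to 10.2 TPM in TLSMGCL. The totals of the 3 Matrigel groups overlapped while their makeup differed. Acta2 supplied 57.8% ± 4.41 (SD, n = 3) of it in TLSMG, 91.4% ± 2.68 in TLSMGC and 88.6% ± 1.74 in TLSMGCL. Actc1 supplied 32.8% ± 4.18, 4.68% ± 2.59 and 8.74% ± 2.01 in the same groups, and 42.4% ± 5.62 in Gastruloid. Muscle actins were a small part of all actin: with the cytoplasmic Actb and Actg1 included, they made up 0.229% to 1.78% of actin TPM per library. The summed cytoplasmic actins varied within groups, from 2035 to 4261 TPM in TLSMG, so the shares of all actin were not compared.

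**Figure D2:**
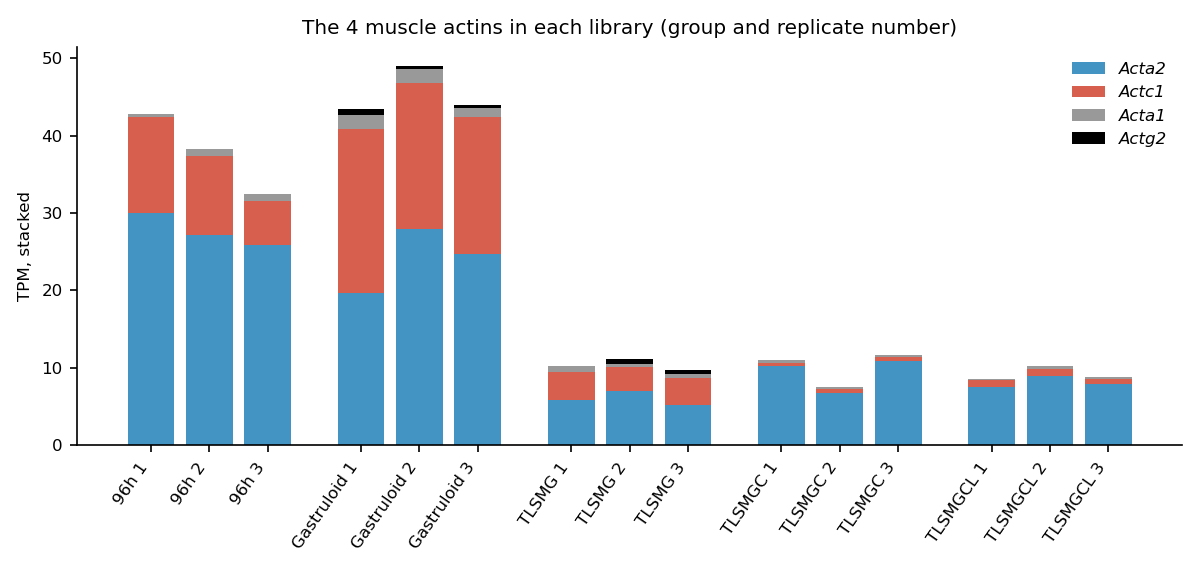
Stacked TPM of Acta2, Actc1, Acta1 and Actg2 (vertical axis, linear from 0) in each of the 15 libraries (horizontal axis, group and replicate number). The stacks of the Matrigel groups are all under 12 TPM, against 32.5 to 49.0 TPM in 96h and Gastruloid, and the Actc1 part is thin in TLSMGC and TLSMGCL.

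Actin coding sequences are alike, which can misplace reads. Identity over aligned coding positions in the GENCODE M21 transcripts ran from 82.5% to 86.2% among the 4 muscle actins. Between them and the cytoplasmic actins it ran from 81.5% to 84.8%. No 75-base window of the main Actc1, Acta2 or Actg2 transcript occurred in a transcript of another gene, and 0.437% of the Acta1 windows did, so an error-free read of this length from Actc1, Acta2 or Actg2 matches 1 gene.

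Tagln (ENSMUSG00000032085.5, chromosome 9, 45929619 to 45936058) encodes transgelin, an actin-binding protein of smooth muscle. It measured 5.14, 4.77 and 2.47 TPM in Gastruloid, where each library exceeded all libraries of the other groups. The 96h values were 0.588, 0.225 and 0.668 TPM, and TLSMG gave 0.944, 0.520 and 0.492 TPM, which overlapped them. In TLSMGC it was listed at 0, 0.122 and 0.177 TPM and in TLSMGCL at 0, 0.0862 and 0 TPM. The test gave a log2 difference of 1.75 for Gastruloid against 96h (adjusted p = 1.28e-05). For TLSMGC and TLSMGCL against TLSMG it gave -0.58 (adjusted p = 0.0337) and -0.67 (adjusted p = 0.0149). The first of these was lost in 10 of 15 alternatives and the second in 3, with adjusted p up to 0.192 and 0.133, and leaving out TLSMG replicate 1 ended both. The TLSMGC call was also lost without TLSMG replicate 2 or any 1 TLSMGC library. Of the 75-base windows of the main Tagln transcript, 40.9% also occur in transcripts of Gm48529 and Pcsk7 on the opposite strand, and whether the counting used strand is not given in the sources used here. The Tagln level is uncertain for this reason.

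Des (ENSMUSG00000026208.9, chromosome 1, 75360329 to 75368579) encodes desmin, the intermediate filament of muscle. It measured 8.95, 8.27 and 10.97 TPM in 96h and 4.01 to 6.21 TPM in the 12 libraries at 120 h, none of which reached the 96h range. Desmin fell from 96h in each 120 h group, by 0.71 in Gastruloid (adjusted p = 0.000654), 0.69 in TLSMG (adjusted p = 0.000697), 0.77 in TLSMGC (adjusted p = 0.000355) and 0.90 in TLSMGCL (adjusted p = 9.89e-05). Between TLSMG and the CHIR groups it did not pass the test, with differences of -0.08 (interval -0.36 to 0.20) and -0.21 (interval -0.49 to 0.07). TLSMG and Gastruloid had means of 5.43 and 5.32 TPM, a log2 difference of 0.02 in the comparison that chose the genes.

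The tables also give coverage, the mean depth over all annotated exon bases of a gene, which allows a check on what these TPM values stand for. Coverage, divided by its value per TPM in genes with 1 transcript and multiplied by the exon length, gives an implied mean length of the transcripts that carried the reads. It rests on GENCODE M21, which may not be the authors' release: for Acta2, whose ID version differs, it gave 2196 bases, longer than any M21 transcript of that gene. For Actc1 this gave 1473 bases in every library, the length of its longer annotated transcript. For Des it gave 1459 to 2278 bases, between the coding transcript of 3028 bases and the retained-intron transcripts of 784 and 835 bases. Unlike that of Actc1, the value differed between libraries. The implied lengths were greatest in TLSMG, up to 2278 bases, where each library exceeded all libraries of 96h, Gastruloid and TLSMGCL. Of the 75-base windows of the main Des transcript, 5.01% also occur in Gm15179. That gene measured 0, 0.330 and 0.191 TPM in TLSMG and did not exceed 0.0971 TPM in other groups. The part of this sharing in the implied lengths was not tested. When coverage in place of TPM was tested, Des in TLSMGCL was 0.47 lower than in TLSMG (adjusted p = 0.00439, whereas the call was not made under any other alternative).

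**Figure D3:**
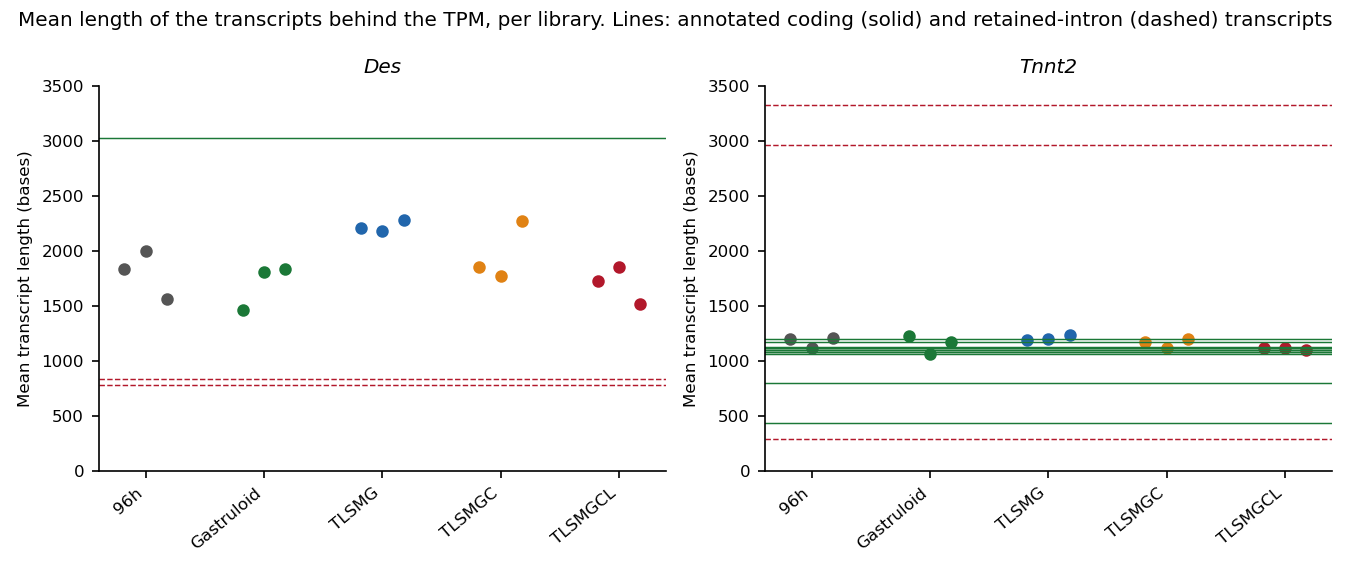
Implied mean length in bases of the transcripts behind the TPM of Des and Tnnt2 (vertical axis) in the 5 groups (horizontal axis); points are libraries, solid lines annotated coding transcripts and dashed lines retained-intron transcripts of GENCODE M21. Des lies between its coding transcript of 3028 bases and the retained-intron ones, and Tnnt2 lies near the cluster of coding transcripts of 1064 to 1200 bases.

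Tnnt2 (ENSMUSG00000026414.13, chromosome 1, 135836354 to 135852260) encodes troponin T of heart muscle, part of the calcium switch of the sarcomere, and was high in the groups where Actc1 was lowest. It measured 0.120, 0.715 and 0.295 TPM in 96h, 1.45, 1.43 and 2.35 TPM in Gastruloid and 0.564, 1.75 and 1.41 TPM in TLSMG. With CHIR it was higher in every library, at 9.11, 5.85 and 4.08 TPM in TLSMGC, and with LDN as well it reached 16.6, 12.6 and 16.2 TPM. TLSMGCL overlapped no other group, and TLSMGC overlapped none of the groups below it. The implied mean length of its transcripts was 1065 to 1233 bases, near the full-length coding transcripts of 1064 to 1200 bases, and none of its 75-base windows occurred in another gene. Its mean depth did not exceed 5.43, because the annotated exons, retained introns included, span 7752 bases.

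Tnnt2 rose 5.11-fold from TLSMG to TLSMGC (log2 difference 1.70, standard error 0.26, adjusted p = 0.000215) and 12.2-fold from TLSMG to TLSMGCL (log2 difference 2.88, adjusted p = 1.76e-06). From 96h it rose by 2.38 in TLSMGC (adjusted p = 9.65e-06), by 3.56 in TLSMGCL (adjusted p = 1.94e-07) and by 1.00 in Gastruloid (adjusted p = 0.00788). The last call was lost with a pseudocount of 5 (adjusted p = 0.0687) and with coverage in place of TPM (adjusted p = 0.101). The rise of 0.69 from 96h to TLSMG was close to the threshold (adjusted p = 0.0468) and was lost in 11 of 15 alternatives, with adjusted p up to 0.241. Among the libraries whose removal ended it were replicates 1 and 3 of 96h and replicates 2 and 3 of TLSMG. TLSMGCL was 2.38-fold above TLSMGC (log2 difference 1.18, adjusted p = 0.0483), a call lost in 10 of 15 alternatives, with adjusted p up to 0.226. Leaving out TLSMGC replicate 2 or 3, or any TLSMGCL library, was among them.

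Myl7 (ENSMUSG00000020469.8, chromosome 11, 5896637 to 5898782), the atrial myosin light chain and an early marker of heart tissue, was found in 96h at 5.47, 1.96 and 1.96 TPM. It was listed at 0 in 11 of the 12 libraries at 120 h, and at 0.648 TPM in Gastruloid replicate 3. The first 96h library held the most Myl7 and the most Actc1. That library also held more transcripts of early heart and lateral mesoderm regulators than the other two: Hand1 measured 9.75 TPM against 0.977 and 0.445, Hand2 5.31 against 0.396 and 0.131, Gata4 6.84 against 1.91 and 1.74, and Gata6 18.4 against 6.84 and 5.86 TPM. Without this library, Actc1 was 1.21 higher in Gastruloid than in 96h (adjusted p = 0.000319) and fell by 0.99 in TLSMG (adjusted p = 0.00120), and the rise of Tnnt2 in TLSMG did not pass (adjusted p = 0.154). The choice of Actc1 favours both of its directions here as well.

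In counts over the tested genes, Gastruloid against 96h changed 4 of 5, with 3 higher and 1 lower, where 41.2% of all tested genes changed, 20.8% higher and 20.5% lower. Tagln is among the 3 higher here and among the lower genes in TLSMGC and TLSMGCL against TLSMG. Its calls support no statement, also within these counts. TLSMG against 96h changed 4 of 5, with 1 higher and 3 lower, beside 46.0% of all genes, 33.5% higher and 12.5% lower. TLSMGC against 96h changed 4 of 5, with Tnnt2 higher and Actc1, Acta2 and Des lower, beside 40.7% of all genes, 20.6% higher and 20.1% lower. TLSMGCL against 96h changed these in the same directions, beside 39.5%, 17.4% higher and 22.1% lower. With backgrounds this large, a count of 4 among 5 genes is little to read, and the sizes and directions carry the description. TLSMGC against TLSMG changed 4 of 5, with 2 in each direction, beside 40.9%, 10.4% higher and 30.5% lower. TLSMGCL against TLSMG changed 3 of 5, with 1 higher and 2 lower, beside 44.9%, 9.31% higher and 35.6% lower. TLSMGCL against TLSMGC changed 1, Tnnt2, where 1.18% of all genes changed, 0.406% higher and 0.777% lower. The median log2 difference of the 5 genes was 1.00, -0.69, -0.77, -0.90, -0.08, -0.21 and -0.09 in these 7 comparisons in the order given, Tagln included. Over all tested genes the median was 0.14 for TLSMG against 96h, and -0.16 and -0.18 for TLSMGC and TLSMGCL against TLSMG, and these shifts shrank to -0.01, -0.01 and -0.0019 after median-of-ratios scaling. In the other comparisons it lay within 0.04 of 0.

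**Figure D4:**
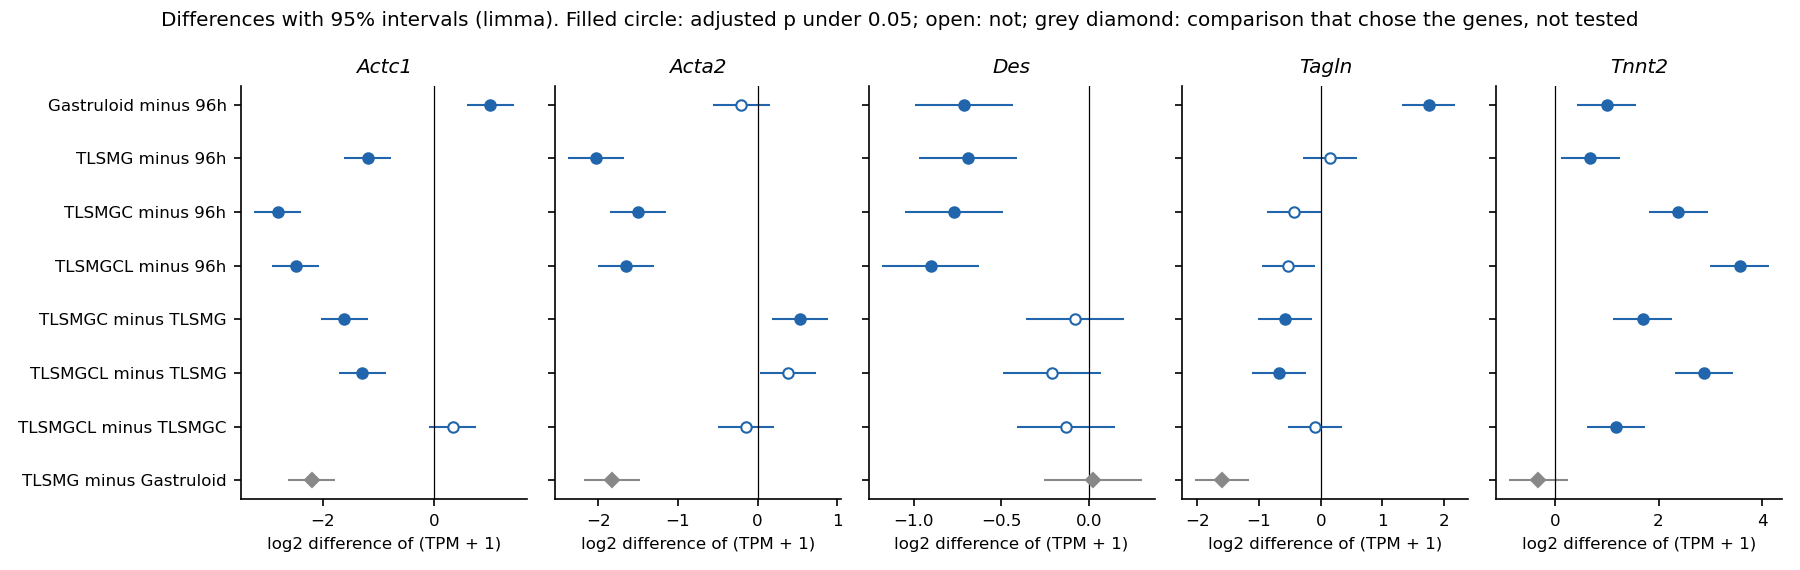
Log2 difference of TPM + 1 (horizontal axis) with 95% intervals for the 5 tested genes in each comparison (vertical axis); filled circles have an adjusted p under 0.05, open circles do not, and grey diamonds are the comparison that chose the genes. Actc1 and Tnnt2 lie on opposite sides of 0 in the comparisons of TLSMGC and TLSMGCL with 96h and with TLSMG.

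Across the 15 libraries, log2(TPM + 1) of Actc1 correlated with Tagln at a Pearson's r of 0.83, with Acta2 at 0.75 and with Tnnt2 at -0.74. The points fall into 5 groups, so these values describe group levels, not independent samples. The genes most like Actc1 over the same libraries were Mea1 (r = 0.978), Timm17b (0.970), Rfxank (0.954), Naxe (0.953) and Gm5526 (0.952). Their ranges were far narrower than that of Actc1: Mea1 ran from 80.3 TPM in TLSMGCL to 149 TPM in Gastruloid by group mean. None of them belongs to the lists of muscle genes below. Acta2 was most like Prss36 (r = 0.919), Zyx, the focal adhesion protein zyxin (0.909), and Gm22133 (0.908). Des was most like Gm12854 (0.934), Sez6l2 (0.929) and Olfm1 (0.925), and Tagln most like Rnu1b6, Gm26232 and Sem1 (0.956, 0.955 and 0.944). Tnnt2 was most like the adhesion molecule Cadm1 (r = 0.981), Sparcl1 (0.963) and Slain1 (0.961). Sparcl1 went with it over a wide range, from 19.5 TPM in 96h and 26.4 TPM in TLSMG to 220 TPM in TLSMGC and 377 TPM in TLSMGCL.

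Other genes of the contractile apparatus were taken from lists, which were chosen with earlier results of these data known. Most genes named from them passed the threshold with the largest differences, so they were picked for how they moved. Counts over a list are read beside the shares of all tested genes given above for each comparison. Of 15 smooth muscle contractile genes, 11 were tested. Myl9, the regulatory light chain of smooth muscle myosin, was 2.7 ± 0.633 TPM in 96h, 28.5 ± 2.63 TPM in Gastruloid, 8.30 ± 0.942 TPM in TLSMG, 1.23 ± 0.151 TPM in TLSMGC and 1.32 ± 0.0948 TPM in TLSMGCL. Tagln was also highest in Gastruloid and lowest in the CHIR groups. From 96h to Gastruloid 4 of the 11 genes rose and 3 fell, Myl9 by 3.01, Cnn2 (calponin 2) by 1.70 and Mylk (myosin light chain kinase) by 1.31 among those that rose, and Smtn, Vcl and Csrp1 among those that fell. From TLSMG to TLSMGC 9 fell and none rose, with Myl9 at -2.06, Cnn2 at -1.77 and Mylk at -1.33, and the list's median was -0.66. From TLSMG to TLSMGCL 8 fell and 1, Csrp1, rose, with a median of -0.72. Of all tested genes 30.5% fell from TLSMG in TLSMGC and 35.6% in TLSMGCL, with medians of -0.16 and -0.18. From 96h, 4 rose and 2 fell in TLSMG, none rose and 9 fell in TLSMGC, and none rose and 8 fell in TLSMGCL. Of the listed genes, Myh11 and Cnn1 were nearly absent: Myh11 did not exceed 0.04 TPM and Cnn1 0.57 TPM in any library. The 11 tested genes averaged at least 1 TPM, and Smtn among them ran from 16.8 TPM in TLSMGC to 34.6 TPM in 96h by group mean.

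**Figure D5:**
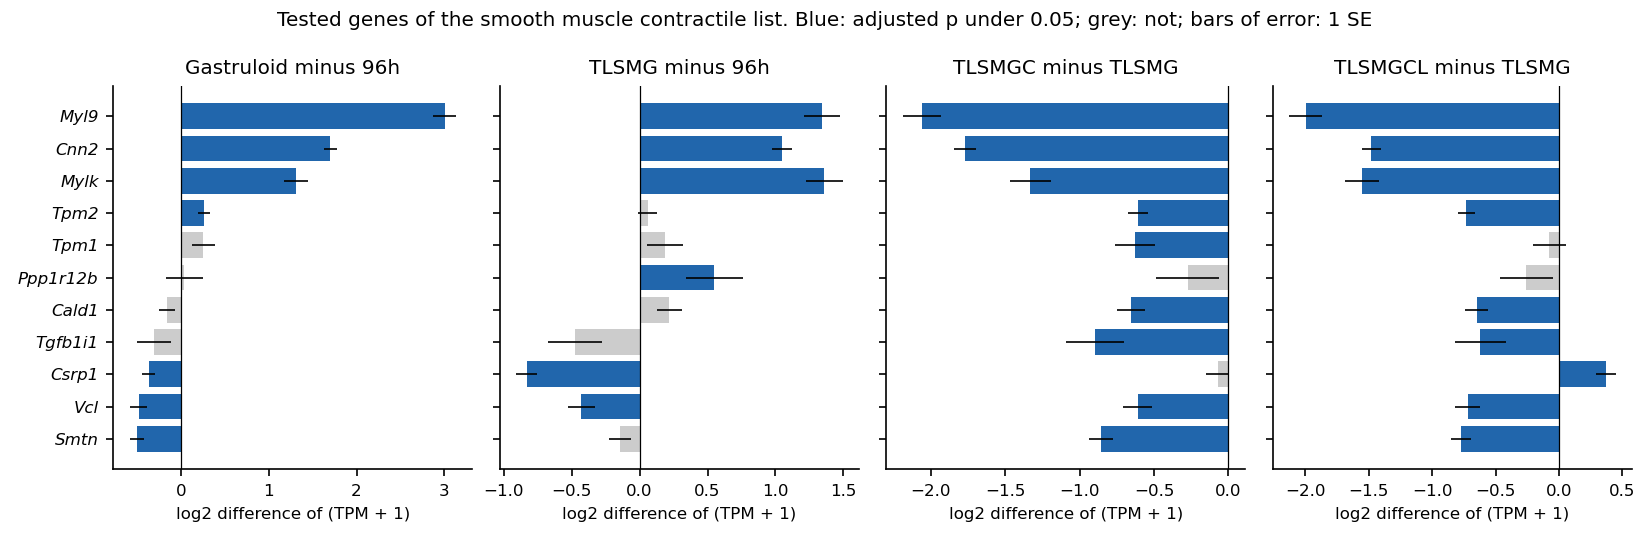
Log2 difference of TPM + 1 with 1 standard error (horizontal axis) for the 11 tested genes of the smooth muscle contractile list (vertical axis) in 4 comparisons; blue bars have an adjusted p under 0.05. Myl9, Cnn2 and Mylk are higher in Gastruloid and TLSMG than in 96h and lower in TLSMGC and TLSMGCL than in TLSMG.

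Of 32 listed genes of the striated sarcomere, 16 stayed under 1 TPM in every library and 6 were tested. The list summed to 24.8 to 61.5 TPM per library. Its fast skeletal myosin light chain Mylpf, named after its values were seen, was more abundant than Actc1 in each group mean, at 20.5 ± 6.64 TPM in 96h, 28.1 ± 3.69 TPM in Gastruloid, 14.6 ± 0.726 TPM in TLSMG, 10.5 ± 1.83 TPM in TLSMGC and 15.5 ± 3.30 TPM in TLSMGCL. It fell by 0.86 from 96h to TLSMGC (adjusted p = 0.00502) and did not pass the test in the other tested comparisons. Ckm, Csrp3 and Tcap were listed at 0 throughout, and the giant sarcomere protein Ttn did not exceed 0.00491 TPM. From 96h to Gastruloid 2 of the 6 rose, the cardiac myosin heavy chain Myh7 from 0.965 ± 0.0420 to 3.90 ± 0.191 TPM and the actin-binding Nexn from 1.03 ± 0.132 to 4.44 ± 0.857 TPM, and 2 fell, Tnni1 and Myl4. Myh7 averaged under 1 TPM outside Gastruloid and Myl4 outside 96h, so each passed the filter only through that group. The rise of Myh7 in Gastruloid and the falls of Myl4 from 96h support no statement, also within the counts of this list. Myh7 went with Actc1 in the CHIR groups, falling by 1.37 from TLSMG to TLSMGC and by 1.36 to TLSMGCL. Tnni1, the slow troponin I, went with Tnnt2 there: it was 2.27 ± 1.18 TPM in TLSMG, 5.59 ± 0.769 TPM in TLSMGC and 9.42 ± 0.554 TPM in TLSMGCL, and rose by 1.06 and 1.73. From TLSMG, 1 of the 6 rose and 2 fell in each CHIR group, with medians of -0.36 and -0.18. The medians of all tested genes were -0.16 and -0.18, so the TLSMGCL median of the list was that of the background. From 96h, 2 rose and 2 fell in TLSMG, and 1 rose and 4 fell in both TLSMGC and TLSMGCL. Unlike Tnnt2, Tnni1 was highest in 96h, at 15.5 ± 4.72 TPM. Unlike Actc1, Myh7 rose from 96h to TLSMG, by 0.65 (adjusted p = 0.00428 in limma).

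Among 10 genes for SRF and its cofactors, all tested, Srf itself was expressed in every group, from 45.7 ± 2.86 TPM in TLSMGCL to 73.4 ± 6.23 TPM in 96h. Myocardin (Myocd) was 5.59 ± 2.19 TPM in 96h, 2.05 ± 0.385 TPM in Gastruloid, 0.857 ± 0.334 TPM in TLSMG, 0.326 ± 0.136 TPM in TLSMGC and 0.301 ± 0.0676 TPM in TLSMGCL. From 96h to Gastruloid it fell by 1.07 (adjusted p = 0.000758). Its mean over the other groups was under 1 TPM, so it passed the filter only through 96h. Its falls from 96h support no statement, also within the counts of this list. From TLSMG, 6 of the 10 fell in TLSMGC and 7 in TLSMGCL and none rose, with Mef2c at -1.32 and -1.73, Fhl2 at -0.96 and -0.85 and Mkl2 at -0.69 and -0.71. From 96h, 1 rose in each group, and 3, 2, 5 and 6 fell in Gastruloid, TLSMG, TLSMGC and TLSMGCL. Of 10 genes that respond to SRF or YAP, 7 were tested. In Gastruloid 5 of these rose from 96h and 1 fell, with Ctgf 1.97 and Cyr61 0.96 higher and Egr1 at -1.22. In TLSMG 4 rose and none fell. From TLSMG, 4 fell and none rose in each CHIR group, Ctgf at -1.85 and -1.82 and Junb at -1.13 and -1.53. From 96h, 1 rose in each CHIR group while 2 fell in TLSMGC and 4 in TLSMGCL. Of the cytoplasmic actomyosin genes 14 of 14 were tested. From TLSMG 8 fell in TLSMGC and 10 in TLSMGCL with medians of -0.27 and -0.36, Myh9 at -0.96 and -0.99 and Tpm4 at -0.51 and -0.67. Beside this and the 2 lists before it, 30.5% and 35.6% of all tested genes fell, with medians of -0.16 and -0.18. Those medians shrank to -0.01 and -0.0019 after median-of-ratios scaling. From 96h 4 rose and 3 fell in Gastruloid, 4 rose and 2 fell in TLSMG, and 1 rose and 7 fell in each CHIR group.

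Markers of other tissues were measured beside these results, and their counts are read beside the same shares of all tested genes. Of 15 heart markers 7 were tested, and 6 of them fell from 96h to Gastruloid, the group with the most Actc1, while none rose. Hand1, Isl1 and Myocd averaged under 1 TPM over the other groups, so they passed the filter only through 96h. Their falls from 96h support no statement, also within the counts of this list. Nkx2-5, Nppa, Nppb, Bmp10 and Tbx20 did not exceed 0.401 TPM in any library, and the list summed to 61.9 to 108 TPM in 96h, 25.1 to 28.5 TPM in Gastruloid, 27.1 to 29.3 TPM in TLSMG, 32.1 to 37.1 TPM in TLSMGC and 43.9 to 45.4 TPM in TLSMGCL. Much of that sum in TLSMGC and TLSMGCL was Smarcd3, at 16.1 and 20.9 TPM, and Wnt11. Smarcd3 was 16.1 TPM in TLSMG and 47.6 TPM in 96h. Gata4, Gata6, Isl1 and Myocd had lower means in TLSMGC and TLSMGCL than in 96h and TLSMG. In TLSMGC and TLSMGCL, where Tnnt2 was highest, Nppa, Nppb and Bmp10 were listed at 0 and Nkx2-5 did not exceed 0.132 TPM. A gene of the list that rose with Tnnt2 was Wnt11, a secreted WNT ligand, from 0.472 ± 0.376 TPM in TLSMG to 12.9 ± 1.5 TPM in TLSMGC and 21.3 ± 0.341 TPM in TLSMGCL. From TLSMG 1 of the 7 rose and 1 fell in TLSMGC, and 2, Wnt11 and Smarcd3, rose and 2 fell in TLSMGCL. From 96h none rose and 2 fell in TLSMG, 1 rose and 5 fell in TLSMGC, and 1 rose and 6 fell in TLSMGCL. Their part in the levels of Actc1 and Tnnt2 was not tested. Of the endothelial markers 9 of 9 were tested. They all rose from 96h to TLSMG and all fell from TLSMG in TLSMGC and TLSMGCL, and they summed to 10.1 to 14.8 TPM in 96h, 34.6 to 45.8 TPM in Gastruloid, 267 to 324 TPM in TLSMG, 25.1 to 84.5 TPM in TLSMGC and 12.8 to 21.2 TPM in TLSMGCL. None of the 9 was at 0 in a whole group, and the part of endothelial cells in the levels of Actc1, Acta2 or Tagln was not tested. In Gastruloid 6 rose from 96h, in TLSMGC 6, and in TLSMGCL 4 with 1 lower.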

How the data were processed

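Bulk RNA was measured in 15 libraries, 3 in each of 5 groups, and the 5 single-cell samples were not analysed here. The authors deposited 1 table per library with coverage (a signal, the average depth of reads on exon bases), FPKM and TPM for each gene, per the file headers. The submitters' processing notes name cutadapt 2.4, STAR 2.7.3a, StringTie 2.0 and build mm10; the annotation release and the use of strand are not given in the sources used here. The tables hold no read counts, so no counting interval is given, and a 0 is a listed 0.

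Rows of 1 gene ID were summed. Genes with a mean of at least 1 TPM over the 15 libraries were tested on log2(TPM + 1) with limma 3.58.1 in R 4.3.3: 1 fit over all 5 groups, moderated with a variance trend, 10 residual degrees of freedom, two-sided, with Benjamini-Hochberg adjustment within each comparison. The fit was checked on simulated data. A fold change on this scale understates the change of low genes, so ratios of mean TPM are given beside it. Promoters and transcripts came from RefSeq (GRCm38.p6) and GENCODE M21, read with Python 3.11.15. From gene lists, at most 3 genes per direction, list and comparison with the largest differences were named, and likeness was ranked by Pearson correlation. The 8 genes and the lists were chosen with earlier results of these data known. Structures were pooled and the labels call the libraries biological replicates. Alternatives changed the pseudocount, filter, unit, scaling, samples fitted, variance trend, replicate block and libraries left out. The columns of each table belong to its own library, and no other column was used.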

Additional observations from a re-analysis of the deposited data

Results flagged for a closer look

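The change from 96h differed between culture conditions for Actc1, Acta2 and Tnnt2, by the test of the difference itself in limma. Tagln also passed, but it entered the test only through its Gastruloid level, and its calls support no statement. Between TLSMGC and TLSMG the changes differed by -1.62 for Actc1 (adjusted p = 2.65e-05), 0.53 for Acta2 (adjusted p = 0.0196), -0.58 for Tagln (adjusted p = 0.0337) and 1.70 for Tnnt2 (adjusted p = 0.000215). Between TLSMGCL and TLSMG they differed by -1.29 for Actc1 (adjusted p = 0.000158), -0.67 for Tagln (adjusted p = 0.0149) and 2.88 for Tnnt2 (adjusted p = 1.76e-06). Between TLSMGCL and TLSMGC they differed by 1.18 for Tnnt2 (adjusted p = 0.0483). The Acta2 call was lost in 5 of 16 alternatives and this last Tnnt2 call in 10 of 15. The 96h libraries cancel in these differences, which therefore equal the direct comparisons. Actc1 was above every 96h library in all Gastruloid libraries and below every one in all TLSMG libraries, which lay -2.20 apart on the log2 scale. That difference was not tested, since it chose the genes.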

How the results depend on the processing

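Over the alternatives, 497 of 546 log2 differences of the tested genes kept their direction and side of the threshold, 41 no longer passed and 8 newly passed. None of those called changed sign. The numbers of all genes changed stayed within 1.5 times in 108 of 112 cases. The exceptions were in TLSMGCL against TLSMGC, with 169 genes called and 1850 at an unadjusted p under 0.05: a fit of only the 2 groups called 42, and leaving out 1 library gave from 56 to 198. In that comparison Tnnt2 was no longer called, leaving 0 of the 8 genes, with a pseudocount of 0.1, no filter, a minimum mean of 5 TPM, the fit of 2 groups, no variance trend, or the replicate block, and leaving out 1 library gave 0 to 1. With a minimum of 5 TPM, which keeps only Actc1, Acta2 and Des, 2 were called in Gastruloid against 96h, 2 in TLSMGC against TLSMG and 1 in TLSMGCL against TLSMG. With no filter 7 were called in Gastruloid against 96h. Leaving out 1 library gave 2 to 3 in TLSMGC against TLSMG. Libraries with the same number did not deviate together (mean correlation -0.07 to 0.04), so no pairing by number was seen. A low mean correlation cannot exclude a pairing that affects only some genes. Beyond TLSMGCL against TLSMGC, the replicate block ended the Tnnt2 call in TLSMG against 96h. In Gastruloid against 96h, Tnnt2 was not called with a pseudocount of 5 (0.33) or with coverage in place of TPM (0.25), an alternative chosen after seeing the data which averages depth over all annotated exon bases. In the comparison that chose the genes, Actc1 ranged from -2.46 (pseudocount 0.1) to -1.52 (pseudocount 5). The tables give no read counts, so the precision of levels near 0 (Acta1, Actg2, Myl7, Tagln) is unknown.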

Other observations

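Skeletal muscle precursor genes were measured as well. Of 14 listed, 8 were tested. Myf5, Myod1, Myog, Myf6, Chrna1 and Mymk did not pass the filter, and 5 of the 14 stayed under 1 TPM in every library. From 96h to TLSMG 6 of the 8 rose while none fell, where 33.5% of all tested genes rose. Among them were Lbx1, a regulator of migrating muscle precursors, which rose by 3.31 (adjusted p = 1.28e-09 in limma), and Pax7, of muscle stem cells, which rose by 1.21 (adjusted p = 0.000287). From TLSMG, Lbx1 fell by 1.95 in TLSMGC and by 3.18 in TLSMGCL, while Cdh15, the adhesion molecule M-cadherin, rose by 1.29 and 1.60. In these comparisons 1 of the 8 rose, and 3 and 4 fell. The 1 that rose was Cdh15, which averaged under 1 TPM outside the CHIR groups and so passed the filter only through them. Its rises in the CHIR groups support no statement, also within the counts of this list. From 96h, 3 rose and 2 fell in Gastruloid, 5 rose and 1 fell in TLSMGC, and 4 rose and 1 fell in TLSMGCL. Which cells carried these transcripts was not tested.

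Of 8 mural cell markers 3 were tested, and they did not move together. From 96h to Gastruloid 2 rose and 1 fell: Pdgfrb, the PDGF receptor of vessel-supporting cells, rose by 1.72, Mcam rose by 0.60 and Notch3 fell by 0.83. From 96h, 2 rose and 1 fell in TLSMG, and 1 rose and 2 fell in each CHIR group. From TLSMG, 2 fell in TLSMGC and 3 in TLSMGCL, with Pdgfrb at -1.25 and -1.14, where 30.5% and 35.6% of all tested genes fell. The list summed to 54.0 to 68.2 TPM in 96h, 58.5 to 66.9 TPM in Gastruloid, 78.0 to 81.7 TPM in TLSMG, 43.3 to 50.8 TPM in TLSMGC and 40.1 to 47.8 TPM in TLSMGCL. Of 10 fibroblast markers, which feeder cells would also carry, 5 were tested. The collagens Col3a1, Col1a2 and Col1a1 rose from 96h to Gastruloid by 3.54, 2.51 and 2.41, whereas the surface protein Thy1 fell by 2.21 and the matrix protein Fbln2 fell by 0.61. From 96h, 3 rose and 1 fell in each Matrigel group. From TLSMG, 2 rose and 2 fell in TLSMGC, and none rose and 2 fell in TLSMGCL. The list summed to 12.6 to 17.1 TPM in 96h and 37.6 to 51.7 TPM in Gastruloid, where Actc1, Acta1 and Tagln were highest. It summed to 30.4 to 36.2 TPM in TLSMG, 23.4 to 30.4 TPM in TLSMGC and 21.3 to 22.1 TPM in TLSMGCL. The part of fibroblasts or mural cells in the muscle actin levels was not tested.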
